A study of Homo sapiens with 12 samples.

Results

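GRM7, NKAIN2, PCSK5 and CCNT1 are 4 of the 59098 genes placed on the chromosomes used (19974 of them protein-coding). Each was chosen for 1 strong ATAC-seq peak inside its span that was called in every library of a group and in no library of another. They were chosen from the peak calls themselves. Regions with a peak in all 3 lists of 1 group and in 0 of the 3 lists of a second group were ordered by rank of -log10 q within each list, and each member held a region at place 1 or 2 of such an ordering. The median rank was the top 0.0353% for GRM7 and 0.0268% for NKAIN2, with 0.126% and 0.0539% for the next region outside that limit, and 0.417% for PCSK5 and 0.173% for CCNT1, with 2.82% and 8.50% outside it. These medians are over the 3 lists of the group with calls in the choosing comparison. Over all 7 lists that held the PCSK5 peak, its median rank was the top 15.1%. Over all 12 libraries the split was complete by phenotype for GRM7 and NKAIN2, whereas for PCSK5 and CCNT1 it held in the comparison that chose them and calls were mixed elsewhere. The calls in the comparison that chose a member are therefore given as a description, with no test. The 4 genes held 27 of the 178040 regions formed by merging the peaks of all libraries, of which 1 lay in GRM7, 11 in NKAIN2, 12 in PCSK5 and 3 in CCNT1. The question taken up here was whether each strong peak stood alone in its gene or among other peaks that also followed the groups.

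Chromatin accessibility had been profiled in MIAPaCa2, an established pancreatic ductal adenocarcinoma cell line, by ATAC-seq, a method that uses the Tn5 transposase to cut and tag open DNA. Parental cells (phenotype Parental) and cells labelled LDHA inhibitor resistant were each left untreated or given the LDHA inhibitor oxamate, a competitive inhibitor of lactate dehydrogenase A, which converts pyruvate to lactate. By the study's methods the resistant cells were a polyclonal population that had grown out under continuous culture with oxamate, untreated cells received phosphate-buffered saline, and 1 cell line was used. The 4 groups, untreated parental, treated parental, untreated resistant and treated resistant, had 3 libraries each, and no label says that replicates came from separate cultures, so the p-values below measure the spread between these libraries, which may be technical.

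An ATAC-seq peak marks DNA that the transposase could reach, most often at active promoters and enhancers. A peak inside a gene can belong to an internal regulatory element, and a peak alone does not say which gene it serves. GRM7 encodes a metabotropic glutamate receptor, a G protein-coupled receptor best known at synapses. NKAIN2 encodes a membrane protein that interacts with the beta subunit of the Na,K-ATPase and is mainly expressed in the nervous system. PCSK5 encodes a proprotein convertase, a protease that cuts precursor proteins at basic residues in the secretory pathway. CCNT1 encodes cyclin T1, the regulatory partner of CDK9 in P-TEFb, the kinase that releases paused RNA polymerase II.

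The 12 lists held between 46401 and 63259 peaks. The smallest peak width, which in paired-end calling follows the fragment length, was 67 to 87 bp in the 6 parental lists and 94 to 124 bp in the 6 resistant lists. This width and phenotype cannot be told apart in these libraries, and its part in the calls was not tested beyond a filter on width. Of the markers of the line, KRT8, KRT18 and VIM showed an end peak, that is a peak no further than 1 kb from either end of the gene, in 12 of 12 libraries. The acinar genes PRSS1 and CPA1 showed one in 1 library and CELA3A in 0, PTPRC, CD3E and PECAM1, markers of blood and vessel cells, showed one in 0, and no region lay in CDKN2A, which this line is known to lack.

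The start sites of the members already set CCNT1 apart. The promoter window at the outer end of CCNT1, 250 bases before to 50 bases after the start site, overlapped a peak in 12 of 12 libraries, whereas the windows of GRM7, NKAIN2 and PCSK5 overlapped a peak in 0 of 12. A second RefSeq window of CCNT1, at an internal start site (chr12:48696189-48696488, GC content 31.3%), also overlapped a peak in 0 of 12. Of 34961 such windows on the chromosomes used, 35.6% had a peak in 12 libraries and 50.7% in 0. The 250 bases before the start sites of CCNT1, the member whose promoter was called in every list, and of GRM7, whose promoter was called in none, are shown from RefSeq on GRCh38.p14, each read 5′ to 3′ on the strand of its gene. The CCNT1 stretch is chr12:48716708-48716957 on the minus strand and the GRM7 stretch is chr3:6860865-6861114 on the plus strand. The 6 motifs searched were the ETS motif CCGGAAG, the GC box with the letters GGGCGG, the E-box with the letters CACGTG, the CCAAT box, the TATA box with the letters TATAAA, and the AP-1 motif TGACTCA. Capitals mark every match on either strand, and no matches overlap each other here.
CCNT1: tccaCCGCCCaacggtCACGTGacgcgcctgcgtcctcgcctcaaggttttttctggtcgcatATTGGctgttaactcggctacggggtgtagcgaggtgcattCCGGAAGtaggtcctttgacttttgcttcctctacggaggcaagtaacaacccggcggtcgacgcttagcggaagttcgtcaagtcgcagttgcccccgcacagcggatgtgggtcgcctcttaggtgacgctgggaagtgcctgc
GRM7: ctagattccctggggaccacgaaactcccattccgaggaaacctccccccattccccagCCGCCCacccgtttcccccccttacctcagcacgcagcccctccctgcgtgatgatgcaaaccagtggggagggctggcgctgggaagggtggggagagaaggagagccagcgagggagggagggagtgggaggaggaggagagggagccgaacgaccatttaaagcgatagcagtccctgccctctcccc
CCNT1 held 1 match each to the ETS motif, the GC box, the E-box and the CCAAT box, whose first bases stood at -146, -246, -234 and -187 from the start site. These motifs occurred in 10.3%, 45.0%, 7.27% and 34.6% of all windows. GRM7 held 1 GC box and no other of the 6 motifs, and neither window held the TATA box or the AP-1 motif, which occurred in 11.5% and 4.92% of windows. The GC content of the 300-base windows was 59.0% in CCNT1, 65.0% in GRM7, 62.3% in PCSK5 and 50.3% in NKAIN2, against a median of 58.7%. CpG dinucleotides numbered 26 in CCNT1, 16 in GRM7, 20 in PCSK5 and 8 in NKAIN2, with a median of 14. A match is a description of the letters and not a bound site. The sequences of the strong peaks themselves were not analysed here.

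**Figure D1:**
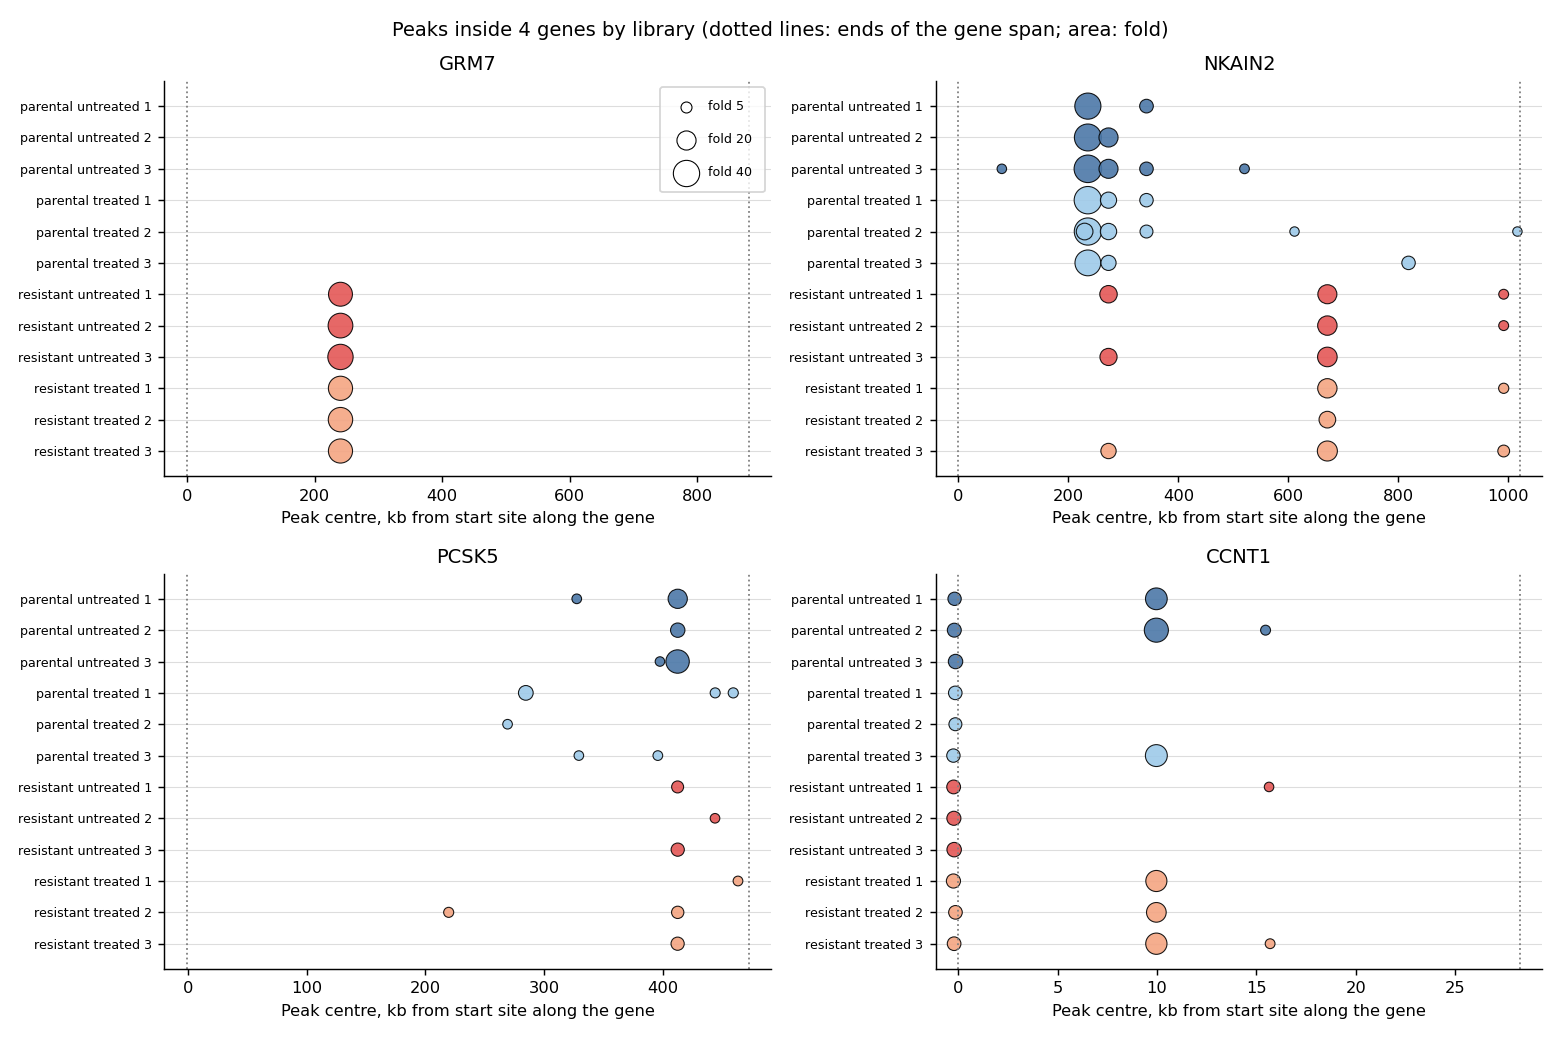
Position of every peak inside the 4 genes (horizontal axis, kb from the start site along the gene) in each of the 12 libraries (rows, coloured by group), with the area of a circle following the fold over local background and dotted lines at the ends of the gene. GRM7 shows 1 column of circles in the 6 resistant rows and nothing else. NKAIN2 shows a parental and a resistant column 435 kb apart, between them a column of 8 libraries from both phenotypes, and further smaller circles. PCSK5 shows 1 column among scattered small circles, and CCNT1 shows its strong column about 10 kb from the start-site column that is present in all rows.

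GRM7 held exactly 1 region along 880 kb. Its strong peak, chr3:7101591-7101970, had a call in all 6 resistant libraries and in 0 of the 6 parental ones and was 380 bp wide with the same start and the same end in all 6 lists. It lay 241 kb downstream of the start site, at 27.3% of the gene. The fold over local background, as deposited, was 32.7, 35.1 and 36.9 in the untreated and 33.4, 34.2 and 33.3 in the treated resistant libraries. The mean fold was 34.9 ± 2.11 (SD, n = 3) without and 33.6 ± 0.445 (SD, n = 3) with oxamate, and the values overlapped. The peak ranked within the top 0.0282% to 0.0394% of each list by -log10 q, which ran from 139 to 232. The comparison that chose it, treated resistant against treated parental libraries, held 2507 regions of this kind, 2.07% of those called in these libraries, and GRM7 stood at place 2. In the untreated libraries, which that choice did not use, the region was likewise called in 3 of 3 resistant and 0 of 3 parental lists, as were 0.652% of regions. Of the 2507 regions, 209 repeated the pattern in this way. The same cell populations were compared, so the repeat is not a separate test. A comparison of 3 against 3 libraries cannot give an exact p below 0.1.

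No other peak of any library lay in GRM7, so there was nothing in the gene for the strong peak to stand among. The nearest region called in any library was 302 kb away, a gap larger than that of 99.9% of all regions, whose median gap was 2.71 kb. The nearest regions called in at least 3 libraries lay 522 kb below and 1009 kb above it, both outside the gene. With 0.114 regions per 100 kb, GRM7 was among the barest of the 482 protein-coding genes of at least 400 kb, of which 1.24% had a lower density and 16 genes (3.32%) had at most 1 region. The median of these long genes was 2.48 regions per 100 kb. The antisense genes GRM7-AS1 and GRM7-AS2, which lie within the span, held 0 regions.

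NKAIN2, the longest member at 1022 kb, held 11 regions and 34 peaks. Its strong peak, chr6:124039778-124039870, was called in 6 of 6 parental and 0 of 6 resistant libraries, the opposite of GRM7. The fold was 39.5, 42.2 and 44.1 in the untreated and 43.6, 43.0 and 38.4 in the treated parental libraries. The means were 41.9 ± 2.33 (SD, n = 3) and 41.7 ± 2.84 (SD, n = 3), so the values with and without oxamate overlapped. The peak ranked within the top 0.0199% to 0.0388% of each list, with -log10 q from 239 to 310. It began at the same base in all 6 lists and ended at the same base in 5 of them, with a width of 92 bp in those 5 and 93 bp in untreated parental replicate 3.

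The strong NKAIN2 peak was narrower than the smallest peak of every resistant list, 94 to 124 bp, so no resistant list held a peak as narrow as this one. When only peaks of at least 124 bp were used, the region was called in 0 libraries. In its choosing comparison, treated resistant against treated parental libraries, it stood at place 2 of 771 regions called in parental lists alone (0.638%). In the untreated libraries the same pattern of 3 of 3 parental and 0 of 3 resistant lists was seen for this region and for 0.412% of regions. Of the 771 regions, 46 repeated the pattern in this way.

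A second region of NKAIN2 followed phenotype in the other direction. The peak at chr6:124475169-124475572, 435 kb further along the gene, had calls in all 6 resistant lists and in 0 of 6 parental ones. Its fold was 19.8, 20.7 and 21.1 in the untreated and 20.5, 14.7 and 22.2 in the treated resistant libraries, with treated replicate 2 the lowest. It ranked between the top 0.556% and 2.71% of the lists, below the strong peak of the gene but still far above the middle. In 5 lists it was 396 bp wide with identical ends, and in treated resistant replicate 2 it was 404 bp. A resistant-only region (6 of 6 against 0 of 6) lay inside 124 genes and a parental-only region inside 23, and NKAIN2 was the 1 gene of the table that held both. NKAIN2 had been chosen for its parental-only region and spans 1022 kb. The part of gene length was not tested.

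The other NKAIN2 regions were weaker or mixed. A 189-bp peak at chr6:124077270-124077458, 37.4 kb from the strong peak, had identical ends in 8 libraries. It was called in 5 parental lists (2 without and 3 with oxamate) and 3 resistant lists (2 without and 1 with oxamate). The lowest fold was 11.7 and the median rank the top 1.59%, and the calls did not separate the groups. Where called, the rank lay within the top 0.603% to 1.74% in parental and 5.37% to 11.6% in resistant lists. The folds overlapped between phenotypes. In parental lists they were at least 19.8 without and at most 13.97 with oxamate, a difference that was not tested. An 88-bp peak at chr6:124146389-124146476 was called in 4 parental lists, 2 untreated and 2 treated, at folds from 7.85 to 9.06, and in 0 resistant lists, all of which have a larger smallest width. A region near the far end, chr6:124795857-124796133, was called in 4 resistant lists, 2 untreated and 2 treated, at folds from 3.56 to 6.16, and in 0 parental lists. The remaining 6 regions were each called in 1 parental library. The strongest of these, a 77-bp peak in treated parental replicate 2 at chr6:124033877-124033953, had a fold of 14.7, lay 5.82 kb from the strong peak and was also narrower than any resistant peak.

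PCSK5 held 12 regions along 473 kb, of which only the strong one was called in more than 1 library. The region, chr9:76302892-76303214, lies 412 kb from the start site, at 87.3% of the gene. It was called in 3 of 3 untreated parental and 0 of 3 treated parental libraries, the comparison that chose it, where it stood at place 1 of 1639 regions called in untreated lists alone (1.21%). Among resistant libraries it was called in 2 of 3 untreated and 2 of 3 treated lists. It was thus called in 7 of 12 libraries, in all or none of those of 2 groups and in some of those of the other 2.

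The PCSK5 peak also varied most within a group. In untreated parental libraries the fold was 20.3, 10.3 and 31.2, with a mean of 20.6 ± 10.5 (SD, n = 3), and the rank was within the top 0.417%, 6.04% and 0.205%. In resistant libraries the fold was 6.42 in untreated replicate 1, 8.30 in untreated replicate 3, 6.90 in treated replicate 2 and 8.30 in treated replicate 3, and the rank lay between the top 15.1% and 22.2%. All folds called in resistant lists were below the lowest untreated parental fold. The peak was 103, 87 and 314 bp wide in the untreated parental lists and between 111 and 268 bp in the resistant lists, and its start moved while its end stayed within 10 bases. The 87-bp width of untreated parental replicate 2 was the smallest width in that list. With peaks of at least 124 bp, or with at least 50% of the region covered, calls were kept in 3 libraries, 1 each of untreated parental, untreated resistant and treated resistant cells.

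Around it PCSK5 held 11 regions that were each called in 1 library, 8 of them in parental cells (2 without and 6 with oxamate) and 3 in resistant cells (1 without and 2 with oxamate). Their folds ran from 3.17 to 10.9. The highest belonged to a 67-bp peak of treated parental replicate 1, again the smallest width of its list, and the other 10 did not exceed 3.89. The nearest of them lay 14.6 kb from the strong peak, and the nearest region called in at least 3 libraries lay 90.4 kb away, outside the gene, and was called in 12 libraries. The pseudogene RBM22P5, nested in PCSK5, held 2 of the single-library regions, and the RNA gene LOC124902183 held 0, so the strong peak lay in neither.

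CCNT1, at 28.3 kb the only short member, held 3 regions and was the one member with a promoter window called in every library, the outer of its 2 RefSeq windows. The start-site region, chr12:48716376-48717413, was called in 12 of 12 libraries with folds from 7.89 to 10.4 and widths from 633 to 1018 bp. The mean fold without and with oxamate was 9.44 ± 0.921 and 8.44 ± 0.505 in parental cells and 9.80 ± 0.592 and 9.28 ± 0.475 in resistant cells (SD, n = 3 each). The ranges of neighbouring groups overlapped, except that all treated parental folds lay below all untreated and treated resistant folds.

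The strong CCNT1 peak, chr12:48706571-48706909, lay 9.97 kb downstream of the start site. It was called in 0 of 3 untreated and 3 of 3 treated resistant libraries, the comparison that chose it, where it stood at place 1 of 245 regions called in treated lists alone (0.239%). It was also called in untreated parental replicates 1 and 2 and in treated parental replicate 3, which the choice did not use. The fold was 26.6 and 33.2 in the untreated parental libraries, 27.0 in the treated parental library and 24.9, 21.4 and 25.4 in the treated resistant libraries. Parental cells thus had calls in 2 of 3 lists without and 1 of 3 with oxamate. The peak was 339 bp wide with the same start and end in all 6 lists that held it, and ranked within the top 0.118% to 0.414% of those lists.

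Where the strong CCNT1 peak was called, its fold was 2.38 to 3.49 times that of the start-site peak of the same list (median 2.97, 6 lists). The 2 peaks differed in width, 339 bp against 888 to 1018 bp in these lists. What width adds to the ratio was not tested. The weak region at chr12:48700790-48701319, 5.25 kb from the strong one, was called in untreated parental replicate 2, untreated resistant replicate 1 and treated resistant replicate 3. Its folds ran from 3.16 to 3.66 and its ranks from the top 74.7% to 92.2%.

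**Figure D2:**
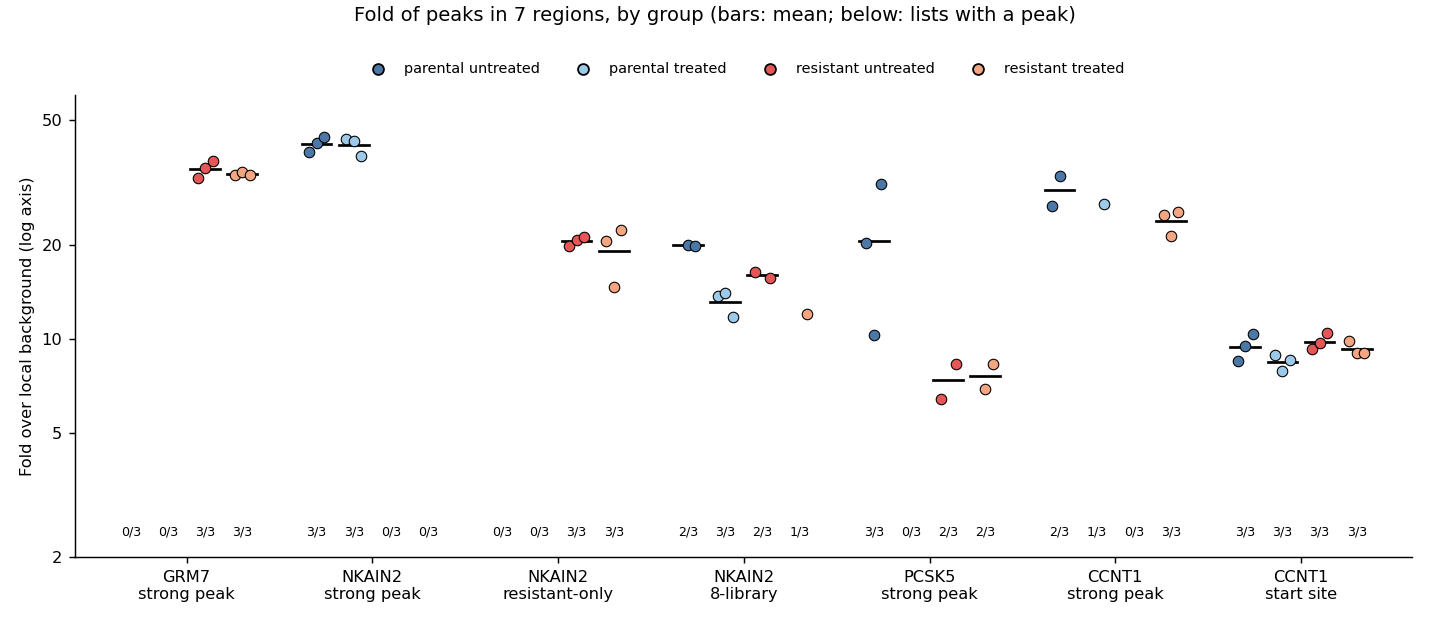
Fold over local background (log axis) of the peaks in 7 regions of the 4 genes, with 1 point for each library that had a call, a bar at the mean of a group with more than 1 call, and below them the number of lists with a call out of 3. The strong peaks of GRM7 and NKAIN2 are called in all lists of 1 phenotype and none of the other, PCSK5 and CCNT1 have calls in 3 of the 4 groups, and the CCNT1 start site is called in every list at folds from 7.89 to 10.4.

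The strong peaks could therefore be read against every other region of their genes. Outside the strong peaks the 4 genes held 23 regions, and 1 of them, the resistant-only region of NKAIN2, had calls in all 3 lists of 1 group and in none of a second group in any of the 4 comparisons of groups that share a phenotype or a treatment. The counts were 0 of 0 in GRM7, 1 of 10 in NKAIN2, 0 of 11 in PCSK5 and 0 of 2 in CCNT1. A region called in 1 library cannot have calls in all 3 lists of a group. All 11 other PCSK5 regions and 6 of the 10 other NKAIN2 regions were of this kind, so the 0 of PCSK5 was fixed in advance. Over all regions, those called in 1 library included, the share that separated groups was 3.02%. Of the regions called in the 6 libraries compared, calls with oxamate alone made up 0.153% in parental and 0.239% in resistant cells and calls without oxamate alone 1.21% and 0.276%, the shares by phenotype being those given above, and 11.4% of protein-coding genes held at least 1 such region. The NKAIN2 count was 2 when untreated parental replicate 2, treated parental replicate 3, untreated resistant replicate 3, treated resistant replicate 2 or treated resistant replicate 3 was left out, since in the first 4 cases a region needed 1 call fewer, and in the last the single treated resistant call of the 189-bp region was removed.

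**Figure D3:**
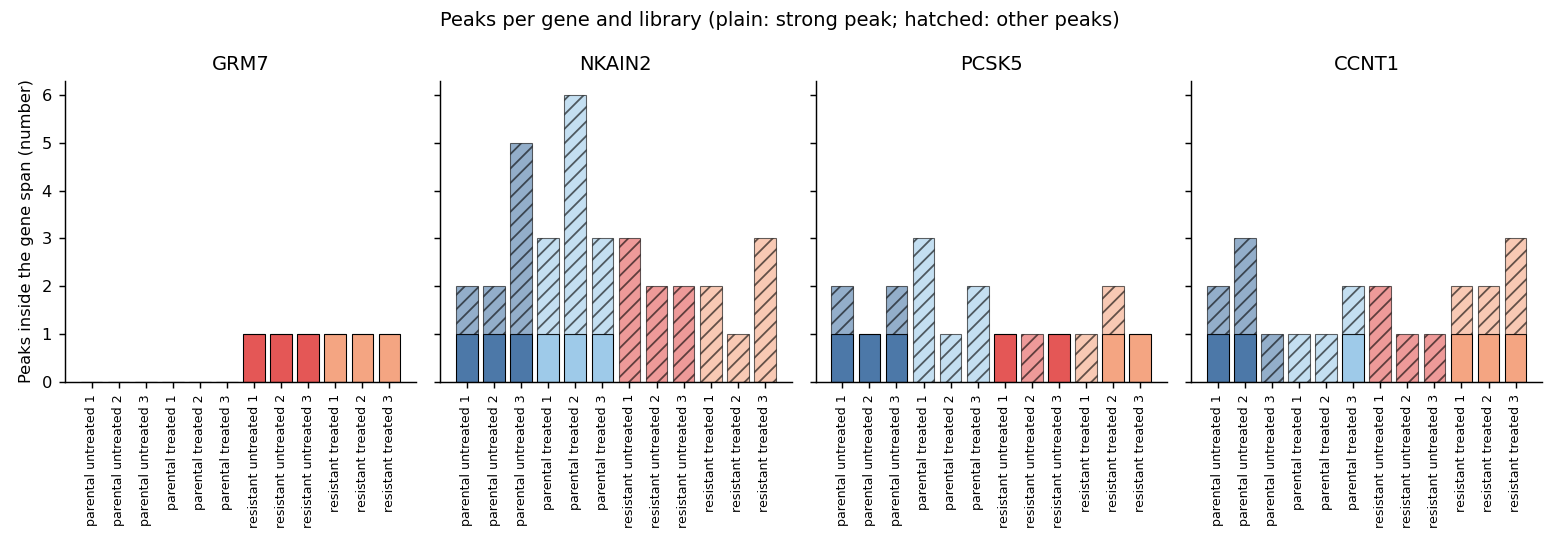
Number of peaks inside each gene (vertical axis) in each of the 12 libraries (horizontal axis, coloured by group), with the strong peak plain and all other peaks hatched. GRM7 has no hatched part, NKAIN2 has between 1 and 5 other peaks in every library, PCSK5 between 0 and 3, and CCNT1 1 or 2.

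The numbers of other peaks were compared in the contrasts that had not chosen the member. NKAIN2 had 1, 1 and 4 other peaks without and 2, 5 and 2 with oxamate in parental libraries, and 3, 2 and 2 without and 2, 1 and 3 with oxamate in resistant libraries. These counts overlapped between all groups. The mean was 2.50 with and 2.17 without oxamate (n = 6 each), a difference of 0.333 (two-sided exact permutation p = 0.81, permuted within phenotype). Without treated parental replicate 2 that difference was -0.167. Between untreated resistant (mean 2.33) and untreated parental (mean 2.00) libraries it was also 0.333 (exact permutation p = 1), and it was -0.167 without untreated parental replicate 1 or replicate 2, 1.33 without replicate 3 and 1.33 with peaks of at least 124 bp.

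PCSK5 had 1, 0 and 1 other peaks without and 3, 1 and 2 with oxamate in parental libraries, and 0, 1 and 0 without and 1, 1 and 0 with oxamate in resistant libraries. Resistant libraries had a mean of 0.5 and parental libraries 1.33, a difference of -0.833 (two-sided exact permutation p = 0.17, permuted within treatment, n = 6 each). It was -0.167 when a -log10 q of 3 or more was required (exact permutation p = 1) and -0.333 with peaks of at least 124 bp (exact permutation p = 0.55). With and without oxamate the resistant libraries had means of 0.667 and 0.333 (exact permutation p = 1). CCNT1 had 1 or 2 other peaks in every library, with means of 1.33 in resistant and 1.17 in parental cells, a difference of 0.167 (exact permutation p = 1), and of 1.00 with and 1.33 without oxamate in parental cells (exact permutation p = 1). GRM7 had 0 in every library and allowed no test. For none of the 3 other genes did the difference exceed the spread between libraries.

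The same permutation test was run for 29721 genes on all their peaks, the members entering with the strong peak left out, and after Benjamini-Hochberg adjustment 0% of genes passed 0.05 by treatment or by phenotype. At an unadjusted p under 0.05 there were 366 genes by treatment (0.0639% higher and 1.17% lower with oxamate) and 883 by phenotype (1.7% higher and 1.27% lower in resistant cells), and the members' adjusted p was 1. These tests cannot fall below 0.005, or below 0.1 for 3 against 3 libraries. That lowest value was reached by 5.21% of genes between treated and untreated parental, 1.35% between treated and untreated resistant and 3.24% between untreated resistant and untreated parental libraries. Counts in these tests over all genes were not scaled to the length of a list. Parental lists held 46401 to 63259 peaks with and 60361 to 62068 without oxamate, and the part of list length in these shares was not tested. At a floor of 0.005, passing the adjustment would need far more genes at that floor than the 366 and 883 under 0.05. The 0% and the members' adjusted p therefore do not show that no gene differed.

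**Figure D4:**
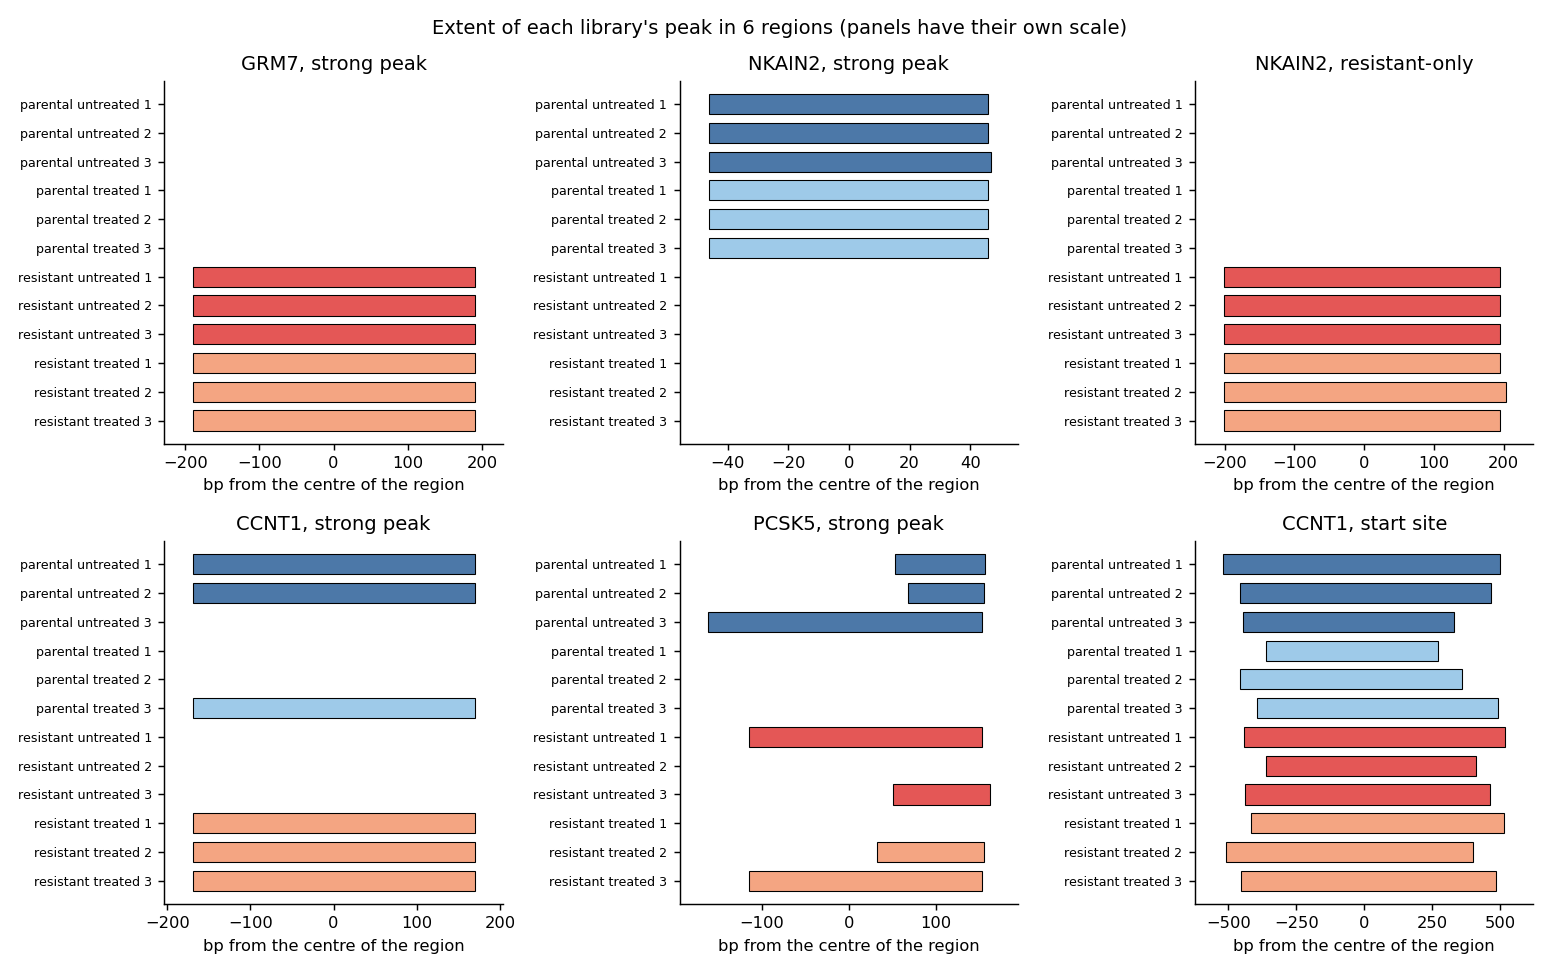
Extent of the peak (horizontal axis, bp from the centre of the region, with its own scale in each panel) in each library (rows, coloured by group) for 6 regions of the 4 genes. The bars of the GRM7, CCNT1 and both NKAIN2 regions line up at their ends to within 8 bp, whereas the bars of the PCSK5 strong peak and of the CCNT1 start site begin and end at different positions.

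Except in PCSK5, the ends of the strong peaks were the same, or within 1 base, in separately called lists, which was uncommon among all regions and common among those with high folds. Of 43194 regions called in at least 6 libraries, 245 (0.567%) had the same start and the same end in every list that held them, as the strong GRM7 and CCNT1 peaks and the 189-bp NKAIN2 peak did. The 245 regions lay on 22 chromosomes, were 87 to 402 bp wide (median 220) and had a median fold of 14.3. Among regions with a fold of at least 10 in every list that held them the share was 122 of 258 (47.3%), and with a fold of at least 20 it was 49 of 67 (73.1%). Both limits of fold were set after the values had been seen. Of 24148 regions called in all 12 libraries, 75 (0.311%) had identical ends, and 52 of the 150 with a fold of at least 10 did (34.7%). The CCNT1 start-site peak, at a fold near 10 and with 12 calls, was not among them.

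The patterns of GRM7 and NKAIN2 were shared by other regions, most of them weaker. Calls in the 6 resistant lists and none of the parental ones were found for 209 regions (0.117% of all), with a median fold of 4.15 and a median width of 641 bp, and the reverse for 46 regions (0.0258%), with a median fold of 4.34 and a median width of 214 bp. By median rank the GRM7 peak stood at place 2 of the 209 and the strong NKAIN2 peak at place 1 of the 46. In protein-coding genes other than the members, the best-ranked regions with the pattern of GRM7 lay in CTNNB1, which encodes beta-catenin, at folds from 30.5 to 35.8 and a width of 380 bp, in SDHAF3, a succinate dehydrogenase assembly factor, at 15.2 to 23.7 and 380 bp, and in MAP3K5, a stress-activated kinase, at 5.25 to 9.82 and 802 bp. With the pattern of NKAIN2 they lay in MOK, a protein kinase, at folds from 36.6 to 47.3, and in OLA1, an ATPase, at 20.4 to 29.2.

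**Figure D5:**
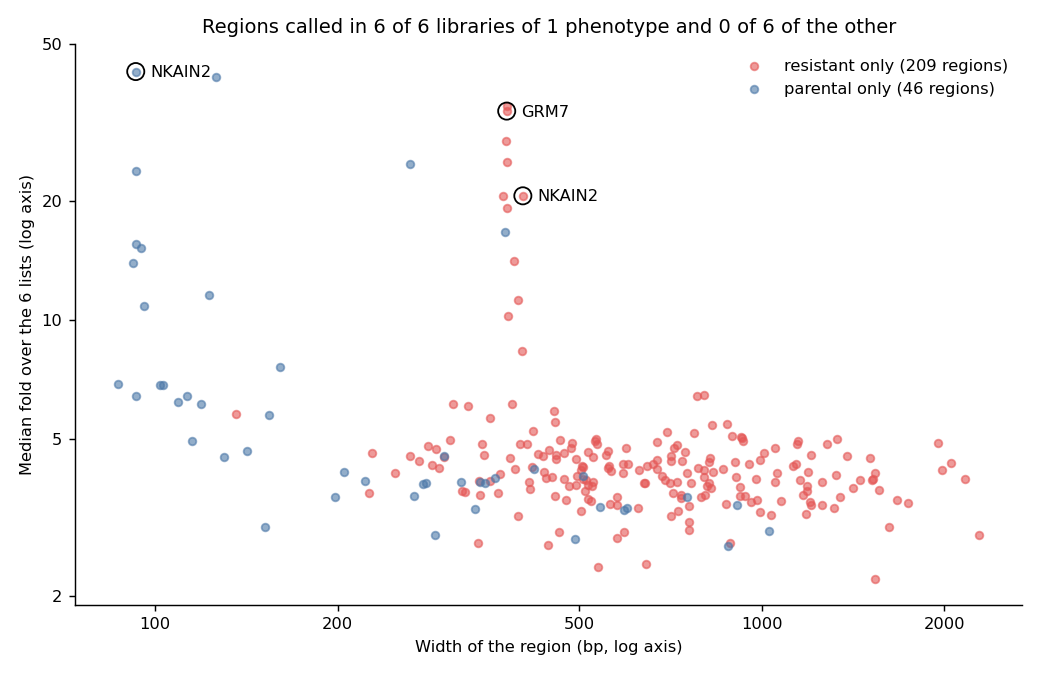
Width (horizontal log axis, bp) and median fold over the 6 lists with a call (vertical log axis) of the 209 regions called in all resistant and no parental libraries and of the 46 regions called in all parental and no resistant libraries, with the regions of GRM7 and NKAIN2 circled. Most points lie under a fold of 10, and the strong resistant-only regions stand close to a width of 380 bp.

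Among these, 15 regions had a fold of at least 10 in each of their 6 lists. The 8 resistant-only ones, with GRM7 and the second NKAIN2 region among them, were all 374 to 404 bp wide (median 380), and 6 had identical ends. The 7 parental-only ones were 92 to 377 bp wide (median 93), and 3 had identical ends. Of these, 4 were 92 or 93 bp wide, as in NKAIN2, and so narrower than the smallest peak of every resistant list, and for them phenotype and smallest width cannot be told apart. In all, 4 of the 8 and 5 of the 7 lay inside a gene of any type. The share of all regions inside a gene was not counted, so these counts are a description only.

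The patterns of PCSK5 and CCNT1 were shared by fewer regions than those of GRM7 and NKAIN2. The pattern of the PCSK5 peak, called or not in each of the 12 libraries, was shared with 15 other regions. The best-ranked of these in protein-coding genes lay in CTNNA3, a catenin, at folds from 3.74 to 6.52, in CPAMD8 at 3.24 to 5.76 and in DGLUCY at 3.14 to 5.94. Of the 3136 regions called in exactly 6 libraries, no other shared the pattern of the CCNT1 peak over the 12 libraries. How often a mixed pattern of calls is unshared was not counted, so this is a description only.

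The relatives of the members were read in the same way. The 7 other metabotropic glutamate receptor genes held 80 regions, of which 2 separated a pair of groups, 1 in GRM2 (folds from 3.60 to 5.47) and 1 in GRM4 (2.83 to 3.65). Both were called in 3 parental lists without and 0 with oxamate, and in 2 resistant lists without and 3 with oxamate. An end peak was called in 12 libraries for 2 of the 7 genes and in 0 for 3. The 8 other proprotein convertase genes held 59 regions, 0 of which separated groups, with an end peak in 12 libraries for 3 genes and in 0 for PCSK2 and FURIN. NKAIN1, NKAIN3 and NKAIN4 held 22 regions, 0 of which separated groups.

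Most partners of cyclin T1 had an end peak in every library. Of 15 genes of P-TEFb and its regulators, among them CDK9, the kinase subunit, and HEXIM1, which holds the complex inactive, 14 had an end peak in 12 libraries and MLLT3 in 0, where 55.0% of all protein-coding genes had one in 12 and 25.6% in 0. They held 115 regions, and 3 separated a pair of groups, 2 in ELL and 1 in ELL2, both elongation factors. The ELL2 region was called in 2 parental lists without and 0 with oxamate, and in 1 resistant list without and 3 with oxamate, at folds from 3.84 to 6.16, and the better-ranked ELL region had folds from 2.87 to 3.35. Shares of 2.5% and 2.61% of the regions of the receptor and P-TEFb lists, and 0% of the convertase and NKAIN lists, stood beside 3.02% of all regions. With 59 and 22 regions, the convertase and NKAIN lists are too short to tell 0 from that share.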

How the data were processed

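Libraries were grouped by their titles, 4 groups of 3. Per the study's methods and the processing notes, the authors aligned reads to hg38 (GRCh38) with Bowtie2 2.1.0, discarded reads that were mitochondrial, duplicated or not uniquely mapped, and called peaks with MACS2 on paired fragments. The MACS2 version and any control or blacklist are not given in the sources used here. Peaks had been called in each library without pooling. The deposited lists give the authors' score, the authors' fold over local background (a ratio), and the authors' -log10 p and -log10 q, each relative to its own library. The lists hold no read counts, so depth is unknown, no counting interval was derived, and calls were compared rather than reads. A missing call means only that no peak passed the caller's limit (smallest -log10 q 1.00).

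Only chromosomes 1 to 22 and X entered, which dropped 0.892% of 677901 peaks. Peaks of all lists overlapping by at least 1 bp were merged into regions, and a peak overlapping a RefSeq gene span (GRCh38.p14) by at least 1 bp was inside it. Peaks were ranked by -log10 q. The gene table gave no exons, so exonic or intronic position was not analysed here. Start sites and strands came from the RefSeq promoter table, which held all 4 members.

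Numbers of peaks outside the strong region were tested by two-sided exact permutation (400 assignments within strata, or 20 for 3 against 3), and total peaks per gene over all genes with Benjamini-Hochberg adjustment. The scripts were tested on simulated data. Genes named besides the members were, for each member, the 3 protein-coding genes with the best-ranked regions of identical calls, family genes with a region separating groups (up to 3 per list), nested genes and fixed markers. Of these genes, 1 is left unreported. The members and lists were chosen with earlier results of these data known. Python 3.11.15, numpy 2.4.6, pandas 2.3.3, scipy 1.17.1 and matplotlib 3.10.9 were used.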

Additional observations from a re-analysis of the deposited data

How the results depend on the processing

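Of 200 alternative values for the counts above, 8 counts moved by over 1.5 times, 4 differences turned direction, and the other 188 did neither and stayed on their side of the threshold, although in 8 of them a difference became 0. Part of this was fixed in advance. GRM7 has no other peak, so its counts of other peaks and other regions could only stay at 0. Every other PCSK5 region was called in 1 library, so the PCSK5 count of other group-specific regions could only stay at 0 too. Tests of 3 against 3 libraries cannot fall below 0.1 and so could not cross 0.05. The smallest exact permutation p over all alternatives was 0.06, for PCSK5 by phenotype with 1 library left out. Turned were the NKAIN2 differences in other peaks, -0.167 by treatment without treated parental replicate 2 and -0.167 between untreated resistant and untreated parental cells without untreated parental replicate 1 or 2, and the CCNT1 difference by phenotype, -0.167 with the same number of top-ranked peaks (45748) in every list. Without turning, the PCSK5 difference by phenotype was -0.167 with -log10 q of at least 3 and -0.333 with peaks of at least 124 bp, and the NKAIN2 difference between untreated phenotypes was 1.33 with that width and 1 with the same number of peaks in every list. The count of other group-specific NKAIN2 regions ran from 1 to 2 with 1 library left out. The PCSK5 strong peak was called in 3 libraries and the NKAIN2 strong peak in 0 with peaks of at least 124 bp, which follows from their widths, and the PCSK5 peak in 3 with 50% of the region covered. The GRM7 and CCNT1 strong peaks were called in 6 libraries under all 4 alternatives run for them.

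With 1 library left out, the NKAIN2 difference ran from -0.167 to 0.833 by treatment and from -0.167 to 1.33 between untreated phenotypes, the PCSK5 difference from -1.08 to -0.583 by phenotype and from 0.167 to 0.667 by treatment in resistant cells, and the CCNT1 difference from 0 to 0.333 by phenotype and from -0.5 to 0 by treatment in parental cells.

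Samples with the same replicate number did not deviate together (correlations from -0.0747 to 0.0853 over 18 pairs and 26322 regions, and from -0.0661 to 0.0664 over 36 pairs with different numbers). With the replicate block, in which labels were exchanged within a number, differences were as above by construction and the exact permutation p was 0.25 for PCSK5 by phenotype (-0.833), 0.875 for NKAIN2 by treatment (0.333) and 1 for the others, so no call changed.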
